A study of Mus musculus with 6 samples.

Results

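Semaphorins are guidance proteins that steer growing axons, migrating cells and vessels, and that immune cells also use to signal to each other. Their main receptors are the plexins, whose cytoplasmic part switches off small GTPases of the Ras and Rap type and acts on the cytoskeleton. Neuropilins serve as co-receptors for the secreted class 3 semaphorins and also bind vascular endothelial growth factors. In the brain, microglia, the resident macrophages, carry several class 4 semaphorins and plexins, while class 3 semaphorins come largely from neurons, vessels and meninges.

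The genes described here are the 20 semaphorins, 9 plexins and 2 neuropilins whose symbols are in the table of 16516 genes, 31 in all, taken by name and not by their values. RNA-seq was done on CD11b+ cells of the cortex of male wild-type C57BL6/J mice aged 8 to 10 weeks, collected at D7, which is 7 days after the first injection. The NS group (n = 3 samples) had received normal saline intraperitoneally on 4 consecutive days. The 4LPS group (n = 3 samples) had received lipopolysaccharide (LPS) of Escherichia coli 055:B5 at 500 µg/kg body weight on the same days. Each sample was RNA of 2 mice. Total counts lay between 15158342 and 15746606 per sample. CD11b, the integrin chain bound by the beads, is not specific to microglia, so each sample can hold other cells. In such bulk samples, fewer cells of a type and less RNA per cell cannot be told apart.

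The labelled cell type was checked against 10 microglia markers, whose summed level was 36189 to 38830 CPM in NS and 33414 to 34205 CPM in 4LPS. CPM are counts scaled to the size of the library, with TMM factors from edgeR, and are used here to compare one gene between samples. P2ry12 and P2ry13 were the 2 of these 10 markers with an adjusted p under 0.05, both lower in 4LPS. Markers of other cells were present and uneven. The 9 NK cell markers all rose, with sums going from 4.53 to 8.24 CPM in NS to 98.2 to 114 CPM in 4LPS. Of 7 T cell markers, 4 had enough counts to be tested and all 4 rose, with sums of 4.34 to 6.14 CPM in NS and 18.1 to 20.6 CPM in 4LPS. The untested Cd3e, Cd3d and Cd3g had at most 11 counts in a sample, and Cd4 and Lck gave most of each T cell sum. Choroid plexus markers summed to 6520, 5670 and 680 CPM over the 3 NS samples in order, against 2216, 25.3 and 537 CPM over the 4LPS samples. The sums of 8 neutrophil markers overlapped, with 178 to 704 CPM in NS against 459 to 1082 CPM in 4LPS, and none of the 8 passed. The part of these cells in the results below was not tested unless a value is given beside a gene. In none of these lists was a marker at 0 in every sample.

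Levels of different genes are compared in FPKM, which is scaled for gene length. The levels of the 31 genes spanned several orders of magnitude. Plxnb2 and Sema4d stood above 100 FPKM on average, 6 genes lay between 10 and 100 FPKM, 15 between 1 and 10 FPKM, and 8 below 1 FPKM. Plxnb2, a receptor of class 4 semaphorins, averaged 256 FPKM and ranked 262nd of the 16516 genes. Sema4d, a membrane semaphorin of leukocytes that binds B-type plexins and CD72, averaged 123 FPKM and ranked 555th. Averaged over all 6 samples, the next were Nrp1 at 46.8 FPKM, Sema4c at 39.0 FPKM, Sema4g at 28.2 FPKM, Nrp2 at 14.1 FPKM, Sema4b at 13.8 FPKM and Plxna4 at 11.8 FPKM. The order by these averages did not hold for Sema4b in either group, since its 19.4 to 22.96 FPKM in NS lay above Nrp2 and its 6.34 to 7.27 FPKM in 4LPS below Plxna4 (10.75 to 11.5 FPKM) and below 10 FPKM. Within NS, the ranges of Sema4c (35.0 to 37.4 FPKM) and Sema4g (25.9 to 27.6 FPKM) did not overlap, nor did those of Nrp1 (41.7 to 52.1 FPKM) and Sema4c. Nrp2 (11.5 to 12.4 FPKM) and Plxna4 (11.5 to 13.3 FPKM) overlapped in NS. The 8 genes with the lowest levels were Sema3a, Sema3e, Sema3d, Sema5a, Sema4f, Sema5b, Plxna2 and Sema6a.

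**Figure D1:**
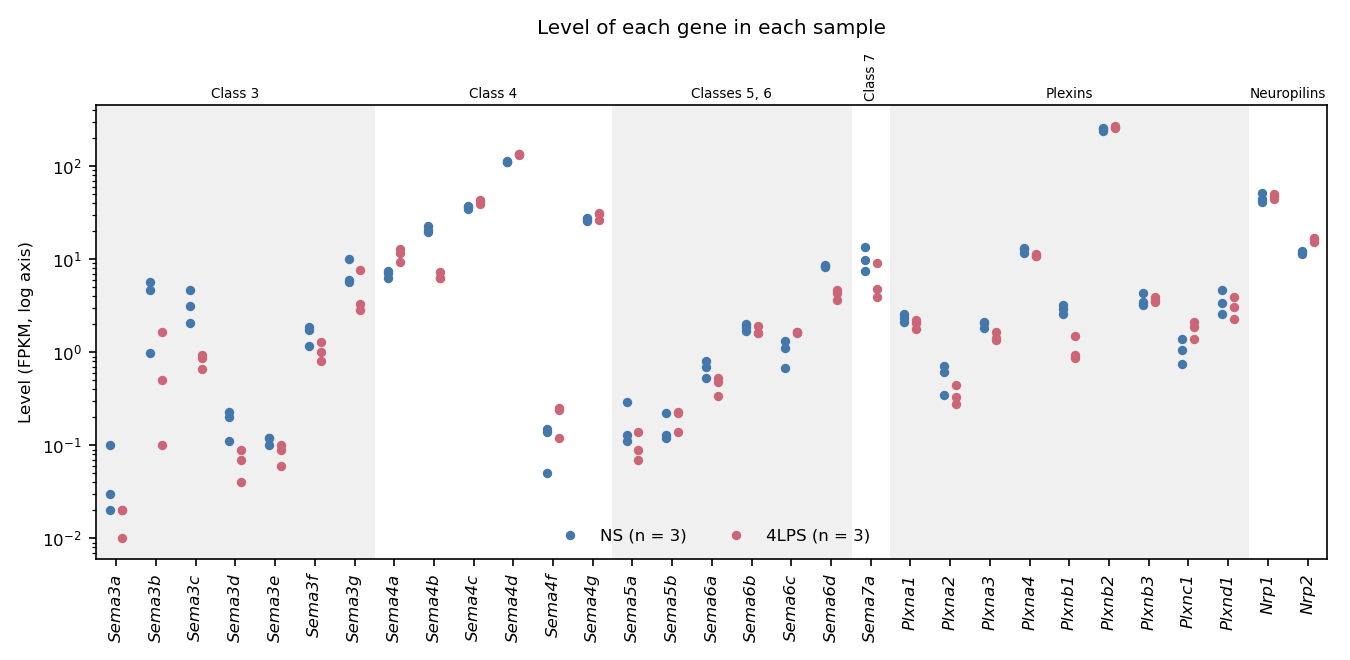
FPKM on a log axis for each of the 31 genes, grouped by class, with a point for each NS sample (blue, n = 3) and each 4LPS sample (red, n = 3). Plxnb2 (239 to 270 FPKM) and Sema4d (110 to 136 FPKM) stand above the rest, and the points of Sema4b, Sema6d and Plxnb1 are separate between the groups.

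Of the 31 genes, 29 passed the filter on low counts and were tested with edgeR's quasi-likelihood test. Sema3a and Sema4f did not pass, with at most 9 and 14 counts in a sample. At a Benjamini-Hochberg adjusted p under 0.05, Sema4a, Sema4c, Sema4d and Nrp2 were higher in 4LPS and Sema4b, Sema6d, Sema3c and Plxnb1 were lower. These 8 of 29 genes (27.6%) compare with 16.4% of all 13151 genes tested. By direction, the 4 higher genes (13.8%) stand beside 9.95% of all genes and the 4 lower genes (13.8%) beside 6.43%. The median log2 fold change of 4LPS over NS was -0.12 over the 29 genes and -0.02 over all genes tested. With samples ordered by CPM, the groups did not overlap for 14 of the 29 genes (48.3%), against 37.4% of all genes (19.9% higher and 17.5% lower). Each of the 8 genes kept its direction and an adjusted p under 0.05 in all 20 alternative analyses, which include the omission of each sample and 1 setting chosen after the data were seen.

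**Figure D2:**
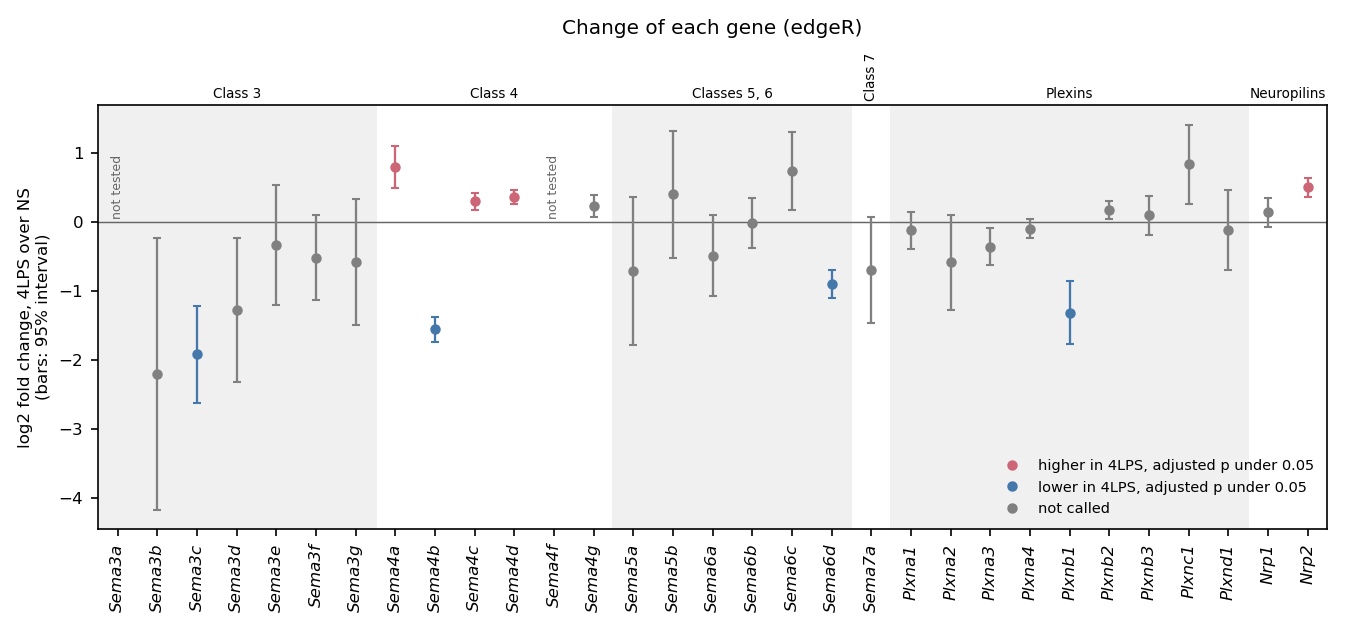
Log2 fold change of 4LPS over NS from edgeR for the 29 genes tested, with 95% intervals for each gene taken singly. The 4 red genes (Sema4a, Sema4c, Sema4d and Nrp2) lie above 0 and the 4 blue genes (Sema3c, Sema4b, Sema6d and Plxnb1) below 0, while Sema3b, Sema3d and Sema5a have the widest intervals among genes with negative estimates.

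Promoter sequences are shown for Nrp2, which was higher, and Plxnb1, which was lower. They were the 2 changed genes with at least 200 bases of RefSeq promoter window outside their own annotated exons. Windows far from the start of the canonical transcript were left out, and exons of other genes were not considered. The windows of 250 bases before a start site came from RefSeq (GRCm38.p6) and were placed on GRCm39 by exact match, and the exon part was left off. Capitals mark the GC-box GGGCGG or its reverse complement CCGCCC, the letters that the factors of the Sp family are known to bind. The Nrp2 stretch is at chr1:62742226-62742443 on the plus strand and the Plxnb1 stretch at chr9:108924254-108924456 on the plus strand of GRCm39.
Nrp2: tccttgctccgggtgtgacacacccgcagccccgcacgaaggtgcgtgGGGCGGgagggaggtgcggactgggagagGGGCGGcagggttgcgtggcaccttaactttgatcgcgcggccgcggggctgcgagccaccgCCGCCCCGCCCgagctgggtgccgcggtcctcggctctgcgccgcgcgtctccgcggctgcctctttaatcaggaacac
Plxnb1: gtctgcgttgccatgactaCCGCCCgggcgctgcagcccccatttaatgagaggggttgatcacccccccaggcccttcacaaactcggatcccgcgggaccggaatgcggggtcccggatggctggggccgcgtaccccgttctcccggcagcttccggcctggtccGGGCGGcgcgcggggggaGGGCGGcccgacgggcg
Both stretches are rich in G and C, at 72.5% for Nrp2 and 72.9% for Plxnb1. Nrp2 holds 4 GC-boxes, of which the last 2 share 1 base, and Plxnb1 holds 3. Over 250 bases and both strands, a GC-box was in 27 of the 37 windows matched to 26 of the 31 genes and in 32.7% of all 32851 windows of the table. The 2 printed stretches hold no match to a PU.1 motif (GAGGAAGT), an NF-kB motif, an AP-1 motif (TGANTCA), an interferon-stimulated response element (ISRE) or an E-box (CACGTG). Over all windows, these 5 motifs were found in 2.44%, 1.21%, 6.75%, 2.98% and 6.02%. A match or its absence describes letters only.

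The class 4 semaphorins, which sit in the membrane and signal mainly through B-type and D-type plexins, moved in opposite directions. Of 6 members, 5 were tested, 3 rose and Sema4b fell, and for all 5 the CPM of the groups did not overlap. Their median log2 fold change was 0.30.

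Sema4b lies on chromosome 7 of GRCm39 from 79836046 to 79876334 on the plus strand, with 14 exons in the canonical transcript. The 3 NS samples had 73.9, 66.4 and 64.3 CPM, in the order of their numbers, and the 3 4LPS samples 24.9, 22.2 and 22.6 CPM. Every 4LPS sample was below every NS sample, with little spread in either group. Means were 68.2 ± 5.05 CPM for NS against 23.2 ± 1.47 CPM for 4LPS (± SD, n = 3 each), so that Sema4b was 2.94-fold lower. The log2 fold change was -1.55 (standard error 0.08, edgeR adjusted p = 3.69e-05), and the omission of single samples moved it to between -1.60 and -1.49. Of the 8 changed genes it had the smallest adjusted p.

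Sema4d lies on chromosome 13 from 51836318 to 51947922 on the minus strand. It stood at 426, 429 and 441 CPM in NS and at 561, 564 and 552 CPM in 4LPS. The samples of a group differed by at most 1.03 times, less than for any other of the 31 genes in NS. The rise was 1.29-fold (log2 fold change 0.37, standard error 0.04, edgeR adjusted p = 0.00127). Sema4d shares 1766 exonic bases with Secisbp2 on the opposite strand, and the sources used here do not say whether counting used the strand, so reads of both genes cannot be told apart there. Secisbp2, an mRNA-binding protein gene for selenoprotein synthesis, averaged 45.5 CPM in NS against 47.7 CPM in 4LPS (log2 fold change 0.07, edgeR adjusted p = 0.60).

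Sema4a, a semaphorin of dendritic cells and lymphocytes as well as of the nervous system, was at 18.9, 17.3 and 20.7 CPM in NS and at 37.5, 27.3 and 34.3 CPM in 4LPS. The lowest 4LPS sample, replicate 2, was still above the highest NS sample. The increase was 1.74-fold (log2 fold change 0.80, standard error 0.13, edgeR adjusted p = 0.0061). Sema4a is on chromosome 3 from 88343262 to 88372558. Markers of NK cells, T cells and dendritic cells rose in the same 4LPS samples, with summed levels over 7 dendritic cell markers of 16.5 to 29.1 CPM in NS and 30.2 to 40.6 CPM in 4LPS, 5 of the 7 higher. Their part in the rise of Sema4a was not tested.

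Sema4c, which binds Plxnb2, was at 121, 127 and 119 CPM in NS and at 149, 143 and 159 CPM in 4LPS. The groups were apart, and the rise was 1.23-fold (log2 fold change 0.30, standard error 0.05, edgeR adjusted p = 0.00965). Sema4g, which also binds Plxnb2, was at 99.6, 108 and 106 CPM in NS and at 131, 126 and 112 CPM in 4LPS. Its lowest 4LPS sample was close to the highest NS sample, and it did not pass (log2 fold change 0.23, 95% interval 0.07 to 0.39, edgeR adjusted p = 0.0556). It passed without 4LPS replicate 3 (0.31, adjusted p = 0.0277) and in DESeq2 (0.24, adjusted p = 0.0203), but not without NS replicate 1 (0.20, adjusted p = 0.163), without a composition factor (0.14, adjusted p = 0.196) or on log2 FPKM (0.13, adjusted p = 0.224), and its FPKM values overlapped between the groups. Over the 20 alternatives it passed in 5. Sema4g shares 1181 exonic bases with Mrpl43, a mitochondrial ribosomal protein gene on the opposite strand, at a log2 fold change of -0.04 (edgeR adjusted p = 0.821). Sema4f had 3 to 9 counts in the NS samples and 7 to 14 in the 4LPS samples, and these ranges overlapped.

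**Figure D3:**
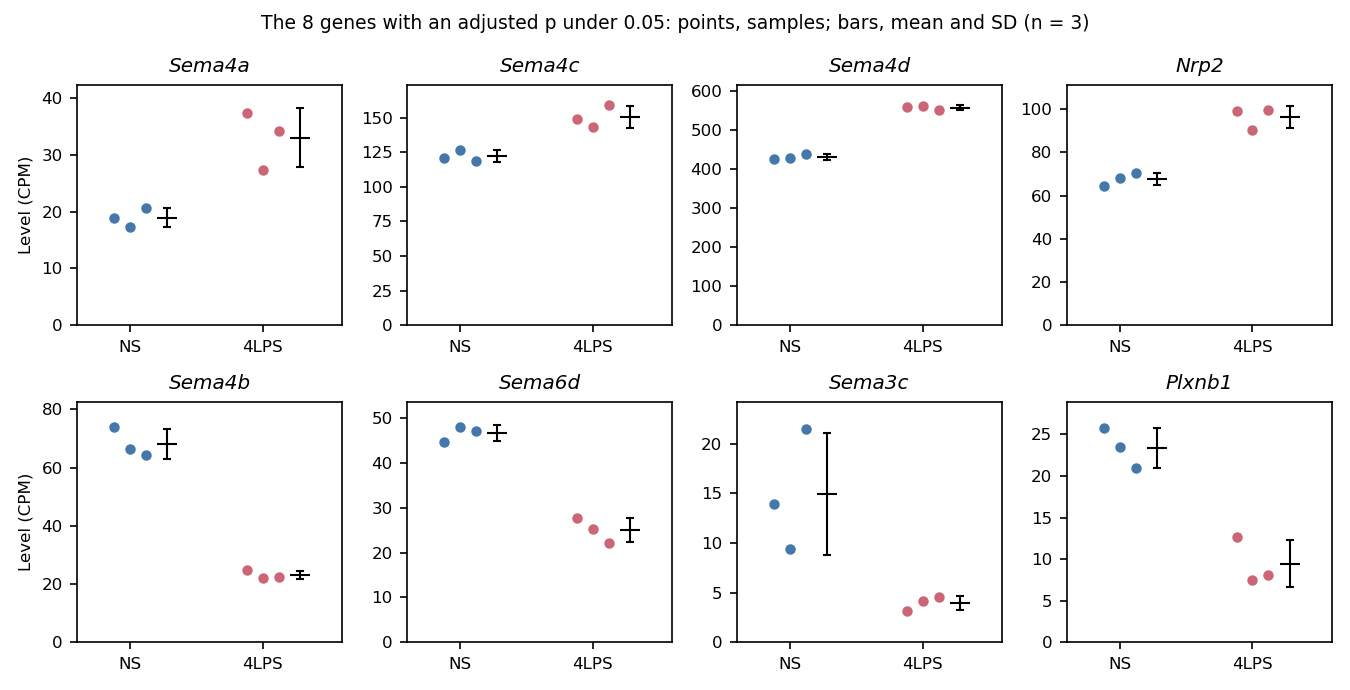
Level in CPM, from 0, of the 8 genes with an adjusted p under 0.05, with a point for each sample and the mean and SD (n = 3) beside it. In each of the 8 panels all 3 4LPS samples lie on one side of all 3 NS samples, and the ratio of highest to lowest NS sample is greatest for Sema3c (2.28).

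The sum over all 20 semaphorins hardly moved while its make-up shifted. It was 242, 236 and 245 FPKM in NS and 249, 240 and 248 FPKM in 4LPS, and these ranges overlapped. Sema4d made up 45.9% to 46.6% of it in NS and 53.2% to 56.7% in 4LPS. The share of Sema4b went from 7.93% to 9.48% in NS to 2.55% to 2.92% in 4LPS, and that of Sema4a from 2.67% to 3.07% to 3.91% to 5.19%. Sema4b was thus above Sema4a in each NS sample and below it in each 4LPS sample. The ratio of Sema4d to Sema4b, which does not depend on how a library is scaled, was 4.84, 5.40 and 5.81 in NS and 18.7, 21.5 and 20.8 in 4LPS.

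**Figure D4:**
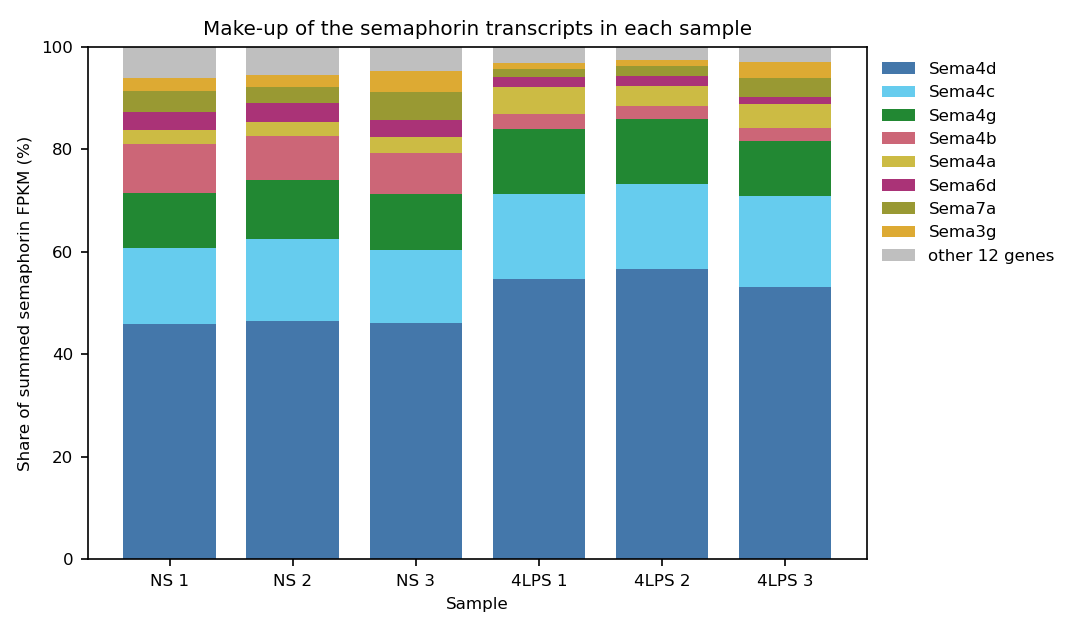
Share of each semaphorin in the summed semaphorin FPKM (percent, stacked) for the 6 samples, with the 12 genes of lowest share pooled in grey. Sema4d takes 45.9% to 46.6% in NS and 53.2% to 56.7% in 4LPS, while the band of Sema4b narrows from 7.93% to 9.48% to 2.55% to 2.92%.

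Class 5 and class 6 semaphorins are membrane proteins, and those of class 6 signal through A-type plexins. Of their 6 members, Sema6d fell and 5 did not pass. Sema6d is known as a ligand of Plxna1, which can form a complex with TREM2 and its adaptor TYROBP on myeloid cells. Its level was 44.6, 48.0 and 47.0 CPM in NS and 27.6, 25.3 and 22.2 CPM in 4LPS. Oligodendrocyte markers, which overlapped, summed to 366 to 597 CPM in NS against 309 to 403 CPM in 4LPS. Sums of astrocyte and neuron markers were lower in 4LPS without overlap. Astrocyte markers summed to 287 to 302 CPM in NS against 210.3 to 242 CPM in 4LPS, with 4 of 8 called lower. Neuron markers summed to 12.01 to 14.3 CPM in NS against 8.09 to 10.1 CPM in 4LPS, with none of 6 tested called. The part of these cells in the decrease of Sema6d was not tested. The 4LPS samples of Sema6d were all well below the NS samples, and the decrease was 1.86-fold (log2 fold change -0.90, standard error 0.09, edgeR adjusted p = 5.5e-04). Sema6d lies on chromosome 2 from 123931715 to 124509928. Sema6c had the steadiest 4LPS values of the other 5, none below 5.91 CPM, while NS had 2.36 to 4.59 CPM (log2 fold change 0.74, edgeR adjusted p = 0.0767). Sema5a, Sema5b, Sema6a and Sema6b had log2 fold changes of -0.71 to 0.40 with overlapping groups, and Sema5a and Sema5b did not exceed 3 CPM in any sample.

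Class 3 semaphorins are secreted and bind neuropilins. Of 7 members, 6 were tested, Sema3c fell and 5 did not pass, and all 6 estimates were below 0 (median log2 fold change -0.92). Sema3c, known from blood vessel and heart outflow development, was at 13.9, 9.43 and 21.5 CPM in NS and at 3.17, 4.15 and 4.54 CPM in 4LPS. NS replicate 3 was the highest and the groups did not overlap. The decrease was 3.78-fold (log2 fold change -1.92, standard error 0.31, edgeR adjusted p = 0.00543). Without NS replicate 3 it was still called, and omitting single samples gave log2 fold changes from -2.16 to -1.56. Sema3c is on chromosome 5 from 17779219 to 17935648.

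Endothelial and mural cell markers varied in the same order as Sema3c among the NS samples and among the 4LPS samples. The 9 endothelial markers summed to 318, 252 and 497 CPM in NS and to 127, 162 and 277 CPM in 4LPS, and 3 of the 9 were lower at an adjusted p under 0.05. The 8 mural cell markers, of which none passed, summed to 164 to 356 CPM in NS and to 106 to 240 CPM in 4LPS. Per 100 CPM of endothelial markers, Sema3c was at 4.37, 3.74 and 4.33 CPM in NS and at 2.49, 2.56 and 1.64 CPM in 4LPS. Per 100 CPM of mural cell markers it was at 5.74 to 6.47 CPM in NS and at 1.89 to 2.98 CPM in 4LPS. On both scales Sema3c was lower in each 4LPS sample than in each NS sample. Both scales divide by marker sums that were themselves lower on average in 4LPS. Which cells gave the Sema3c reads was not tested.

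The same endothelial scale was applied to Sema3g and Sema7a. It divides by a marker sum that averaged 356 CPM in NS and 189 CPM in 4LPS. Which cells gave the reads of these genes was not tested. Sema3g, an endothelial semaphorin of arteries, was at 18.6 to 33.7 CPM in NS and at 9.92 to 26.9 CPM in 4LPS, and overlapped (log2 fold change -0.57, edgeR adjusted p = 0.341). Per 100 CPM of endothelial markers it overlapped too, at 6.13 to 7.38 CPM in NS and 6.13 to 9.71 CPM in 4LPS. Sema7a, which is attached by a lipid anchor and binds Plxnc1 and integrin beta-1, was at 22.1 to 39.3 CPM in NS and 12.1 to 28.6 CPM in 4LPS (log2 fold change -0.69, edgeR adjusted p = 0.182). Without 4LPS replicate 3 it passed (-1.14, adjusted p = 0.0375), as in 1 of 6 omissions of single samples, over which the adjusted p reached 0.383. Per 100 CPM of endothelial markers, Sema7a was at 7.91 to 8.98 CPM in NS and at 9.23 to 10.3 CPM in 4LPS, with each 4LPS sample above each NS sample.

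Sema3b had the largest negative estimate of the 29 genes and did not pass. It was at 18.2, 15.03 and 3.22 CPM in NS and at 5.80, 0.34 and 1.76 CPM in 4LPS (log2 fold change -2.20, standard error 0.85, edgeR adjusted p = 0.116). The ratio of highest to lowest sample was 5.64 in NS and 17.1 in 4LPS, the widest spread in either group among the 31 genes. The samples stood in the same order as the choroid plexus markers given above. The sum of 6 fibroblast markers also had this order. It was 313, 232 and 57.0 CPM in NS and 108, 22.0 and 46.1 CPM in 4LPS. Igf2 gave most of that sum in all samples but 4LPS replicate 2. It was at 288, 213 and 33.0 CPM in NS and at 91.8, 4.49 and 30.4 CPM in 4LPS. Col1a2 did not have this order, at 16.1, 11.7 and 13.9 CPM in NS and 9.51, 9.99 and 9.15 CPM in 4LPS. Per 100 CPM of choroid plexus markers, Sema3b was at 0.265 to 0.474 CPM in NS and 0.262 to 1.34 CPM in 4LPS, and overlapped. Per 100 CPM of fibroblast markers it was at 5.65 to 6.49 CPM in NS and 1.55 to 5.39 CPM in 4LPS, without overlap. Which cells gave the Sema3b reads was not tested. Of the 6 omissions of single samples, that of NS replicate 3 let Sema3b pass (-2.65, adjusted p = 0.0275). The estimate was -1.67 without 4LPS replicate 2 (adjusted p = 0.222), -1.79 without NS replicate 1 (adjusted p = 0.292) and -3.52 without 4LPS replicate 1 (adjusted p = 0.0517). Without NS replicate 3 and 4LPS replicate 1 it was -3.99 (adjusted p = 6.61e-04). This last pair of samples was left out after seeing the data. Sema3d, Sema3e and Sema3f had log2 fold changes of -1.28, -0.33 and -0.51 (edgeR adjusted p = 0.0923, 0.579 and 0.211).

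**Figure D5:**
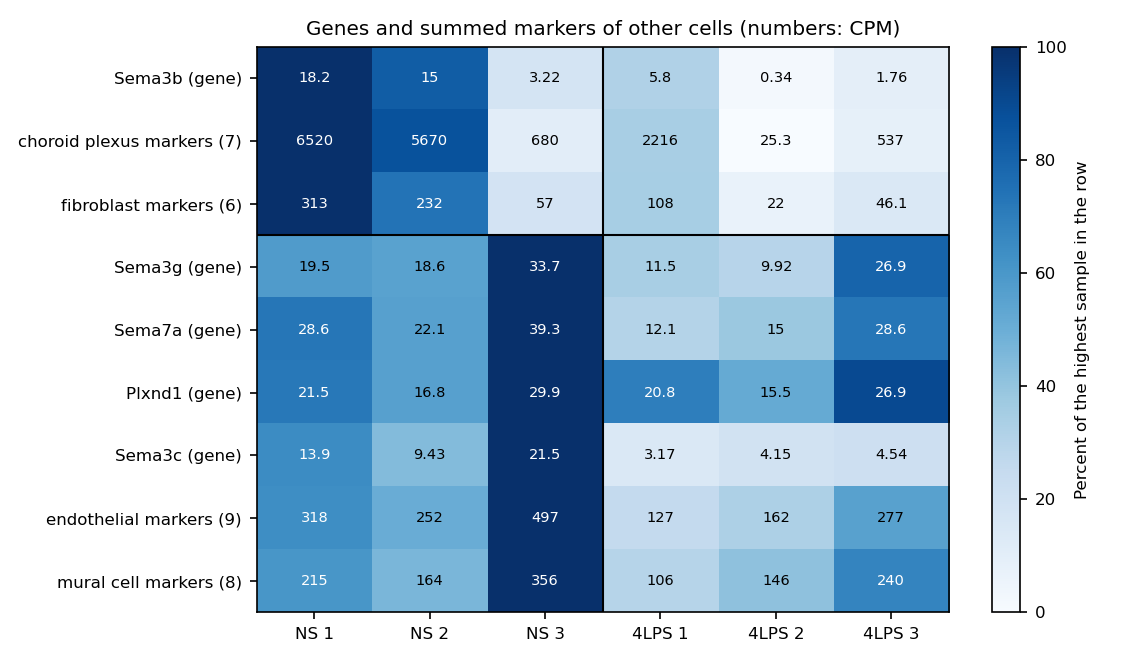
CPM of 5 genes of the family and summed CPM of marker lists of other cell types in the 6 samples, with the color giving percent of the highest sample in the row. Sema3b and the sums of choroid plexus and fibroblast markers are highest in NS replicate 1 and lowest in 4LPS replicate 2. Igf2 gives most of the fibroblast sum in all samples but 4LPS replicate 2. Sema3g, Sema7a, Plxnd1, Sema3c and the sums of endothelial and mural cell markers are highest in NS replicate 3.

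Among the 9 plexins, Plxnb1 fell and 8 did not pass (median log2 fold change -0.11). Plxnb1, a high-affinity receptor of Sema4d, was at 25.7, 23.5 and 20.9 CPM in NS and at 12.7, 7.48 and 8.14 CPM in 4LPS. All 4LPS samples were below all NS samples, and the decrease was 2.48-fold (log2 fold change -1.31, standard error 0.20, edgeR adjusted p = 0.00438). Plxnb1 lies on chromosome 9 from 108923419 to 108950427, with 38 exons in the canonical transcript. The sum of 8 astrocyte markers was lower in the same samples. It was 287 to 302 CPM in NS and 210.3 to 242 CPM in 4LPS, and 4 of the 8 were called lower. Slc1a3 gave most of that sum in all samples and was not among these 4, with means of 177 CPM in NS and 170 CPM in 4LPS. The part of astrocytes in the decrease of Plxnb1 was not tested.

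Plxnb2, the main plexin of these samples, made up 89.1% to 90.5% of the summed plexin FPKM in NS and 91.3% to 91.8% in 4LPS. It stood at 1498, 1539 and 1449 CPM in NS and at 1725, 1662 and 1704 CPM in 4LPS. The groups did not overlap, yet the difference of 1.13-fold did not pass (log2 fold change 0.18, 95% interval 0.05 to 0.31, edgeR adjusted p = 0.0626). It passed in DESeq2 (0.19, adjusted p = 8.02e-04) and in limma-voom (0.18, adjusted p = 0.0307), in all in 4 of 20 alternatives, with an adjusted p of up to 0.281 without a composition factor (0.08 on the log2 scale). The ratio of Plxnb2 to Plxnb1 in FPKM was 77.9 to 92.6 in NS and 181 to 298 in 4LPS. Plxnb3, the B-type plexin of oligodendrocytes, had a log2 fold change of 0.10 (edgeR adjusted p = 0.588).

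Plxnc1, the receptor of Sema7a on leukocytes, was at 7.11, 5.03 and 9.61 CPM in NS and at 15.3, 10.1 and 13.6 CPM in 4LPS. The groups were just apart, and the estimate did not pass (log2 fold change 0.84, 95% interval 0.27 to 1.42, edgeR adjusted p = 0.0544). It passed in DESeq2 (0.85, adjusted p = 0.00785) and without NS replicate 3 (1.103, adjusted p = 0.0139), in all in 7 of 20 alternatives, with an adjusted p of up to 0.15 without NS replicate 1 (0.83 on the log2 scale). The ratio of Sema7a to Plxnc1 in FPKM was 9.36 to 10.1 in NS and 1.84 to 4.92 in 4LPS, though neither gene was called. The 7 monocyte markers had a median log2 fold change of 0.71, and none was called. Their sums overlapped, at 129 to 289 CPM in NS and 157 to 235 CPM in 4LPS. Which cells gave the reads of Plxnc1 and Sema7a was not tested.

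The A-type plexins pass on signals of class 3 semaphorins together with neuropilins and of class 6 semaphorins alone. Plxna4, their most abundant member, was at 156, 154 and 139 CPM in NS and at 137, 146 and 139 CPM in 4LPS. These ranges overlapped, with a log2 fold change of -0.09 (95% interval -0.23 to 0.04, edgeR adjusted p = 0.309). Plxna1, Plxna2 and Plxna3 had log2 fold changes of -0.12, -0.58 and -0.36 (edgeR adjusted p = 0.516, 0.206 and 0.0749), with groups that did not overlap for Plxna3 alone among the 3. Plxnd1, the endothelial receptor of Sema3e, was at 16.8 to 29.9 CPM in NS and 15.5 to 26.9 CPM in 4LPS (log2 fold change -0.11, edgeR adjusted p = 0.792). Per 100 CPM of endothelial markers, Plxnd1 was at 6.02 to 6.76 CPM in NS and at 9.57 to 16.4 CPM in 4LPS, and these ranges did not overlap. The marker sum divided by averaged 356 CPM in NS and 189 CPM in 4LPS. Which cells gave the Plxnd1 reads was not tested.

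Of the neuropilins, Nrp2 rose and Nrp1 did not pass. Nrp2, the co-receptor preferred by Sema3f and by the lymphatic growth factor VEGF-C, was at 64.6, 68.3 and 70.4 CPM in NS and at 99.0, 90.6 and 99.5 CPM in 4LPS. The groups were clearly apart, and the rise was 1.42-fold (log2 fold change 0.51, standard error 0.06, edgeR adjusted p = 0.00141). Nrp2 lies on chromosome 1 from 62742444 to 62857854 on the plus strand, with 17 exons in the canonical transcript. Nrp1, the co-receptor preferred by Sema3a and by VEGF-A, was at 224, 243 and 286 CPM in NS and at 293, 281 and 259 CPM in 4LPS. These overlapped, with a log2 fold change of 0.15 (95% interval -0.07 to 0.36, edgeR adjusted p = 0.296), and omitting NS replicate 3 let it pass (0.25, adjusted p = 0.0316), as did 2 further alternatives of 20, over which the adjusted p reached 0.727. Nrp1 was the more abundant in each sample, with a ratio of Nrp1 to Nrp2 in FPKM of 3.63 to 4.21 in NS and 2.67 to 3.17 in 4LPS.

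The partners of the family in signalling were followed in a list of 58 further genes, of which 57 were in the table and 52 were tested. Of these 52, 7 rose, 7 fell and 38 did not pass, with a median log2 fold change of -0.07, beside 9.95% of all genes tested that were higher and 6.43% that were lower. Of 4 proteases that process semaphorins, Mmp14, Adam17 and Adam10 rose and Furin did not pass. Mmp14, a membrane protease known to release Sema4d from the cell surface, rose from a mean of 58.3 CPM in NS to 120.0 CPM in 4LPS (log2 fold change 1.04, edgeR adjusted p = 1.77e-04). Adam17 and Adam10 had log2 fold changes of 0.40 and 0.28 (edgeR adjusted p = 7.58e-04 and 0.0344).

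Of 13 receptor partners outside the plexins that were tested, 3 rose, 2 fell and 8 did not pass (median log2 fold change -0.38). Cd72, a receptor of Sema4d on B cells and some myeloid cells, rose from 6.57 to 51.6 CPM (log2 fold change 2.97, edgeR adjusted p = 2.77e-05). B cell markers also moved, with sums of 29.9 to 34.3 CPM in NS against 68.2 to 72.96 CPM in 4LPS and 1 of 2 tested called higher, and their part in the rise of Cd72 was not tested. Trem2 and Tyrobp, which join Plxna1 in the receptor of Sema6d, had log2 fold changes of 0.27 and 0.22 (edgeR adjusted p = 0.0194 and 0.0313). Kdr, the VEGF receptor of endothelium, and Erbb2, a receptor kinase that couples to Plxnb1, were lower by log2 changes of -0.90 and -1.38 (edgeR adjusted p = 0.0188 and 0.0277). The endothelial markers given above were lower too, and their part in the decrease of Kdr was not tested. Among 4 neuropilin ligands of the VEGF family that were tested, Vegfa fell by 0.72 (edgeR adjusted p = 0.0372) and 3 did not pass.

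Of the 31 signal transducers tested, 5 passed, a share close to the 16.4% of all genes. Sh3bp1, a GTPase-activating protein that acts with Plxnd1, rose by 0.34 on the log2 scale (edgeR adjusted p = 0.00956). Arhgef12, an exchange factor that binds B-type plexins, and Arhgap35, Farp1 and Mical3 fell by 0.31, 0.30, 0.49 and 0.37 (edgeR adjusted p = 0.012, 0.0244, 0.019 and 0.0401), and 26 did not pass. Among these 26 were the GTPases Rac1 and Rhoa, at log2 fold changes of -0.05 and -0.10 (edgeR adjusted p = 0.434 and 0.214). Single samples weighed on the count of partner genes called, which was 5 when NS replicate 1 was omitted and 7 for NS replicate 2, and 5, 7 and 8 when 4LPS replicate 1, 2 or 3 was omitted.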

How the data were processed

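Per the labels and the study's methods, the authors sequenced paired reads and used SOAPnuke 1.5.2, HISAT2 2.0.4, Bowtie2 2.2.5 and RSEM 1.2.8 to filter, map and quantify them. The build was mm39 in the methods, while the notes of the submitters list mm10 beside it. The sources used here name no annotation. Deposited values were expected counts, which are estimated counts and not normalized, FPKM and TPM values scaled for gene length, and a normalized signal, which the authors made by dividing the count by a size factor. Group means of each were also deposited by the authors. TPM, the signal and the means were not used. The authors' DESeq2 1.16.1 is named in the submitters' notes.

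Expected counts (2.77% of values not whole) were rounded and tested in R 4.3.3 with edgeR 4.0.16 (TMM, filterByExpr, quasi-likelihood F-test, Benjamini-Hochberg adjustment over 13151 genes), with group as the only term. Standard errors were taken as the size of the log2 fold change over the root of F. The fit was tested on simulated data. The members and lists were chosen with earlier results of these data known. Values in every sample were set for members with an adjusted p under 0.05 or a mean of at least 10 FPKM, and partner genes with an adjusted p under 0.05 were named, at most 6 in each direction by smallest p. Outside this rule, Sema3b, Sema3d, Sema3g, Sema6c, Sema7a, Plxna3, Plxnc1, Plxnd1, Adam10, Mical3, Furin, Rac1 and Rhoa were described after their values were seen, as were the ratios of genes and the values per 100 CPM of markers. P-values measure the spread between the 3 pools of mice per group, and depth was nearly equal. Gene coordinates are those of GENCODE vM39 (GRCm39), matched by symbol for all 31 genes, of which 17 share exonic bases with another annotated gene. Alternatives were other scalings (RLE, upper quartile, library size alone), another count filter (none, or 50 counts or more in 3 samples), DESeq2 1.42.0 and limma 3.58.1 (voom, and log2 FPKM with a pseudocount of 1 or 0.1 and with or without a minimum of 1 FPKM in 3 samples). Further ones were a loess correction for gene length derived from counts and FPKM, a replicate block, both together, and each sample left out.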

Additional observations from a re-analysis of the deposited data

How the results depend on the processing

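The 8 genes called kept their direction and call in all 20 alternatives run for each, and 12 of the 21 genes not called were called in none. With each sample left out, 8 to 11 of the 31 genes were called (4 to 6 higher, 4 to 5 lower), all genes called numbered 1150 to 2844, and partner genes called 5 to 15. The lowest totals of all genes were 1150 when NS replicate 1 was omitted, 1298 for 4LPS replicate 2 and 1289 for 4LPS replicate 3. Members called were 13 with the gene length correction (9 higher), 16 with the replicate block and that correction (9 higher, 7 lower; 3418 genes in all), and 7 higher in DESeq2. The replicate block alone gave 11 members called (5 higher, 6 lower). Deviations of same-numbered samples from their group means had correlations of 0.47, -0.26 and 0.07, and not every sample correlated best with its own number. Deviations within a group of 3 samples depend on each other, so these values cannot tell whether the numbers pair the samples. Without NS replicate 3 and 4LPS replicate 1, chosen after seeing the data, 10 members were called (5 higher, 5 lower). Over all genes, 60.8% of calls were higher, but 34.6% without a composition factor, 35.6% to 38.0% with log2 FPKM and 73.5% with the gene length correction, and 49.1% without NS replicate 3 and 4LPS replicate 1. The sign turned only for genes not called. Sema6b (-0.01) was 0.080 with the gene length correction alone or with the block, ranged from -0.098 to 0.057 over the omissions of single samples (0.0013 and 0.057 when NS 2 or NS 3 was omitted, 0.043 and 0.042 when 4LPS 1 or 4LPS 2 was), and was 0.086 without the chosen pair. Plxna1 was 0.10 and 0.099, Plxna4 0.19 and 0.19, and Plxnd1 0.068 and 0.066 with the gene length correction alone and with the block. Plxnd1 ranged from -0.31 to 0.14 over single omissions (0.083 when 4LPS 2 was omitted) and was 0.13 without the chosen pair, where Sema5a was 0.057, after -1.02 to -0.14 over single omissions. The cause of these moves was not tested. No estimate is given for Sema3a and Sema4f, since so few counts limit precision.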
